A study of Mus musculus with 6 samples.

Results

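Inflammasome sensors and pyroptosis effectors were followed in ovarian tissue of adult female rats as 9 genes, Nlrp3, Aim2, Nlrc4, Nek7, P2rx7, Pycard, Casp1, Casp4 and Gsdmd, out of 22487 in the deposited table. The members were taken by gene name, each name had 1 row, and all 9 rows are annotated as protein coding. The groups were 3 libraries from rats exposed to cowshed PM2.5, the fine fraction of airborne particles, and 3 libraries from control rats with no treatment, all of wild-type genotype. The titles add 30 days with no word on what is counted, and no source used here gives the animals' strain, the dose, the route of exposure or whether each library came from its own animal. The p-values therefore measure the spread between these libraries, which may in part be technical. The organism field names the mouse, while titles and gene identifiers name the rat, and the samples are treated as rat.

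Inflammasomes are protein assemblies that form in the cytosol when a sensor detects microbial products, foreign DNA or damage. Sensors recruit the adaptor ASC, encoded by Pycard, which gathers pro-caspase-1 so that it is activated. Active caspase-1 matures interleukin-1β and interleukin-18 and cleaves gasdermin D, whose fragments open pores in the plasma membrane and lead to pyroptosis, an inflammatory form of cell death. In the ovary, macrophages gather at follicle rupture and in the regressing corpus luteum, and myeloid cells are a main source of inflammasome components in tissues.

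Library totals lay between 49554241 and 60749578 counts in the PM2.5 group and between 47662338 and 51530427 in controls. The granulosa hormone gene Inha and the steroidogenic gene Star were at 348 FPKM or more in all 6 libraries, where FPKM is the authors' count scaled to transcript length and library total. The libraries differed in ovarian marker levels within each group. Summed markers of luteal cells (5 of 6 listed genes had a row) were highest in PM2.5 library 1 and control 3, at 24738 and 22378 CPM (counts set to equal library size), against 8312 to 12096 CPM in the other 4 libraries. Summed granulosa markers (5 of 5) were lowest in the same pair. They were 2183 CPM in PM2.5 library 1 and 1237 CPM in control 3, against 4629 to 7391 CPM elsewhere. Most of this sum was Inha, at 1724 CPM in PM2.5 library 1 and 886 CPM in control 3. Inha, Fshr, Amh and Cyp19a1 were each lowest in this pair. Foxl2 was not, with its highest value, 47.5 CPM, in PM2.5 library 1 and 40.6 CPM in control 3. In whole tissue, fewer cells of a type and less RNA per cell cannot be told apart.

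None of the 8 members that could be tested passed the test for a change with PM2.5, and PM2.5 and control libraries overlapped in every one. Nlrc4, the ninth, was too low for the filter of a mean of 0.5 FPKM. By the quasi-likelihood test of edgeR, with p-values adjusted by the Benjamini-Hochberg method over 15303 genes, 0 of 8 members had an adjusted p below 0.05. Of all genes 0.928% were called, 0.19% higher and 0.738% lower. None of the 8 had an unadjusted p below 0.05, which 20.9% of all genes had. DESeq2 also called 0 of 8, against 11.6% of all genes. The groups stood apart in FPKM, without overlap, for 0 of the 8, against 26.7% of all genes. The log2 fold change was negative for 7 of the 8 and had a median of -0.39, beside a median of 0.00 over all genes, of which 49.6% were negative. These counts describe the members, and no test was made of them as a list.

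**Figure D1:**
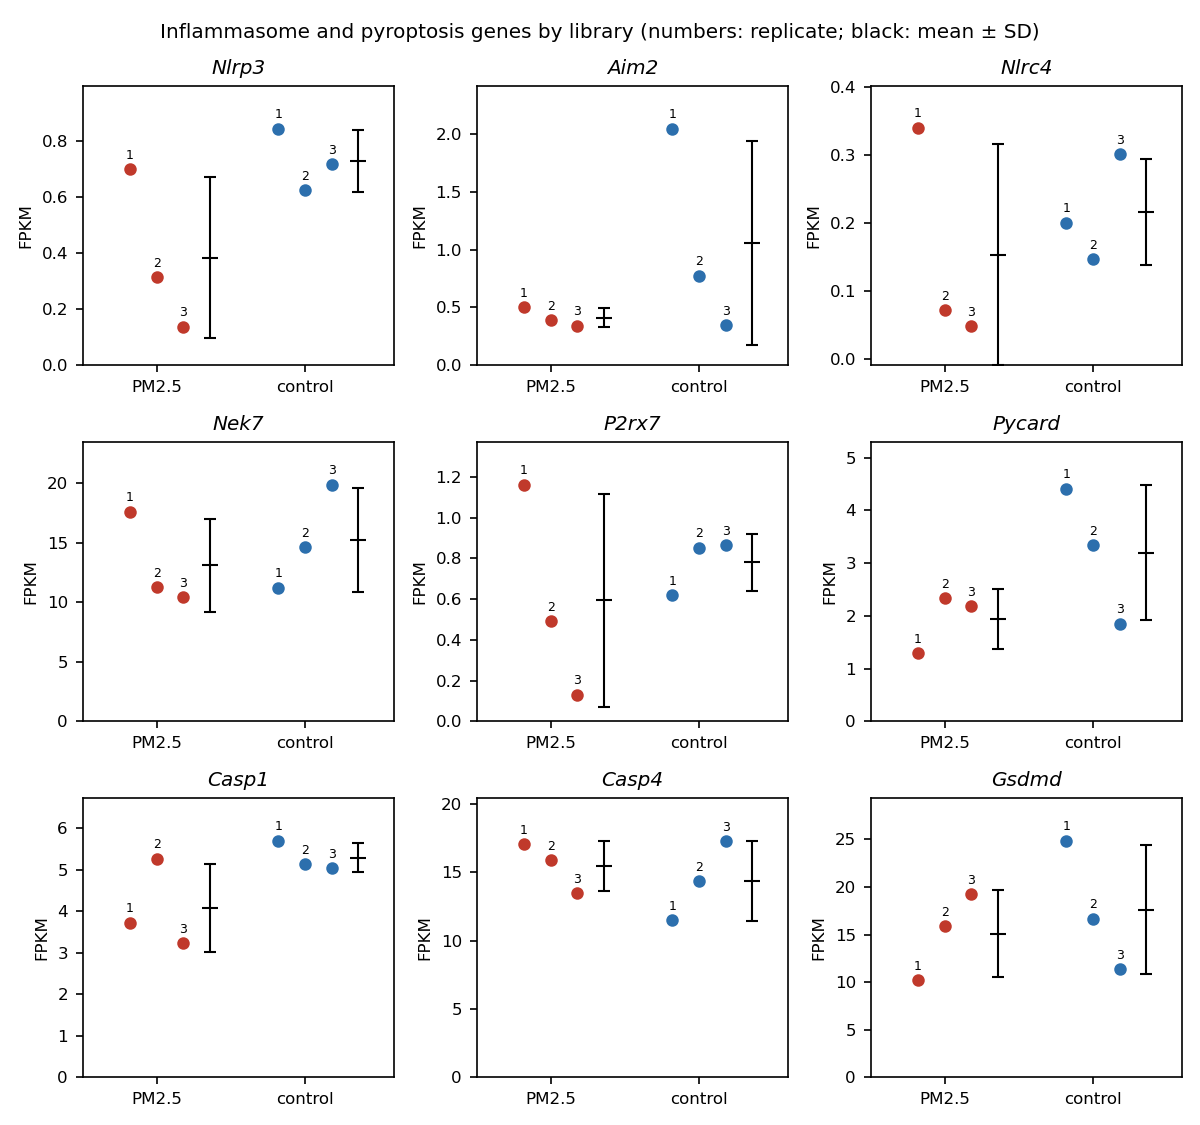
Level of each of the 9 members in FPKM (linear axis) in the PM2.5 libraries (red, left) and control libraries (blue, right), with the replicate number above each point and the mean ± SD in black. Points of both groups overlap in all 9 panels, and PM2.5 library 1 lies far above PM2.5 library 3 for Nlrp3, Nlrc4 and P2rx7.

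Mean levels, set per length by FPKM, placed the members in tiers. Gsdmd, Casp4 and Nek7 were highest, with means over the 6 libraries of 16.4, 14.9 and 14.2 FPKM, and their ranges overlapped. Casp1 averaged 4.69 FPKM and Pycard 2.57 FPKM, and these ranges overlapped as well. Aim2 at 0.734 FPKM, P2rx7 at 0.688 FPKM and Nlrp3 at 0.556 FPKM formed a low tier without separation, and Nlrc4 had the lowest mean, 0.184 FPKM. These lower tiers overlapped by library. Aim2 reached 2.04 FPKM in control 1, while Pycard had 1.29 FPKM in PM2.5 library 1. Nlrc4 reached 0.340 FPKM in PM2.5 library 1, while PM2.5 library 3 had 0.138 FPKM of Nlrp3 and 0.131 FPKM of P2rx7. The sensors were thus measured on few reads, between 30 and 174 counts per library for Nlrp3 and between 36 and 203 for Aim2. Gsdmd had 1484 to 3314 counts per library.

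Nlrp3, the sensor of potassium efflux and cell damage, had 0.700, 0.314 and 0.138 FPKM in PM2.5 libraries 1 to 3, against 0.843, 0.624 and 0.717 FPKM in controls 1 to 3. PM2.5 libraries 2 and 3 lay below every control, and PM2.5 library 1 lay among the controls. The log2 fold change was -0.93 ± 0.60 (SE), with a 95% interval from -2.35 to 0.49, and did not pass (edgeR's adjusted p = 0.410). Leaving out PM2.5 library 1 gave -1.68 (adjusted p = 0.182, range 0.182 to 0.669 over the alternatives), and leaving out PM2.5 library 3 gave -0.53. Nlrp3 lies on chromosome 10 from 44328566 to 44352811 on the plus strand. Coordinates are those of the authors' table, and no source used here names their genome build.

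P2rx7, the ATP-gated channel whose opening lets potassium out and triggers Nlrp3, had 1.16, 0.492 and 0.131 FPKM in PM2.5 libraries 1 to 3 and 0.621, 0.853 and 0.866 FPKM in controls 1 to 3. PM2.5 library 1 was the highest of all 6 and PM2.5 library 3 the lowest, so the PM2.5 libraries spanned the controls. The log2 fold change was -0.40 ± 0.71, with an interval from -2.08 to 1.28, and it was 0.07 when PM2.5 library 3 was left out and -1.32 when PM2.5 library 1 was. P2rx7 lies on chromosome 12 from 33879745 to 33934101 on the minus strand, 17491 bases from P2rx4, a related ATP-gated channel. P2rx4 had 18.2, 10.8 and 9.29 FPKM in PM2.5 libraries 1 to 3, against 13.1, 9.95 and 11.9 FPKM in controls, and did not pass (log2 fold change 0.12 ± 0.28).

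Nlrc4, the sensor that NAIP proteins recruit on binding bacterial flagellin or secretion needle proteins, had 69, 17 and 10 counts in PM2.5 libraries 1 to 3, against 37, 28 and 60 counts in controls 1 to 3. The groups overlapped, with the highest and the lowest count both in PM2.5 libraries. The exact Poisson 95% interval, which covers counting error only, was 53.7 to 87.3 for the 69 counts and 4.80 to 18.4 for the 10 counts, so this spread was larger than counting error. In FPKM these libraries had 0.340, 0.0716 and 0.0482 with PM2.5 and 0.200, 0.147 and 0.301 in controls. Without the filter, edgeR gave a log2 fold change of -0.49 ± 0.85 (adjusted p = 0.802). The log2 ratio of mean CPM was -0.49, and it was -1.81 when PM2.5 library 1 was left out and -0.08 when PM2.5 library 3 was. Nlrc4 lies on chromosome 6 from 20995266 to 21018248 on the plus strand.

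Nlrp3, P2rx7 and Nlrc4 were highest in PM2.5 library 1 and lowest in PM2.5 library 3 within that group, an order that Aim2, Nek7 and Casp4 had too, 6 of the 9 members in all. Within the PM2.5 group the highest library exceeded the lowest 5.06-fold for Nlrp3, 8.87-fold for P2rx7 and 7.05-fold for Nlrc4, against 1.35-fold, 1.395-fold and 2.05-fold within controls. For the other 6 members it was 1.89-fold or less within the PM2.5 group. This difference in spread was noticed in the data and was not tested. The 15 macrophage markers, all with a row and none at 0 in any library, summed to 778, 441 and 453 CPM in PM2.5 libraries 1 to 3, against 575, 463 and 526 CPM in controls. None of the 13 macrophage markers that passed the filter was called. Cx3cr1, under it, had 0.200, 0.0974 and 0.0853 FPKM with PM2.5 and 0.735, 0.434 and 0.467 FPKM in controls, without overlap. Unfiltered, edgeR gave it -2.08 ± 0.53 (adjusted p = 0.152). The macrophage sum was highest in PM2.5 library 1, where Nlrp3, P2rx7 and Nlrc4 were also highest within the group. Fcer1g made up 288 CPM of the sum there. Single macrophage markers differed in r with Nlrp3, from -0.136 for Mrc1 to 0.861 for Cx3cr1. The neutrophil markers (6 of 7 listed had a row, with S100a8 at 0 in control 2 and Mpo at 0 in control 3) summed to 10.1, 10.8 and 3.24 CPM in PM2.5 libraries 1 to 3, against 4.20, 4.17 and 3.797 CPM in controls. Of these sums, Ltf alone was 3.15, 6.80 and 0.121 CPM with PM2.5, and 1.02, 0.372 and 1.05 CPM in controls. The luteal sum had the same order as Nlrp3, P2rx7 and Nlrc4 among PM2.5 libraries, and the part of any of these cell types in the levels was not tested.

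Aim2, the sensor of cytosolic double-stranded DNA, had 0.504, 0.392 and 0.343 FPKM in PM2.5 libraries 1 to 3 and 2.04, 0.774 and 0.347 FPKM in controls 1 to 3. Here the spread lay in the controls, where the highest library exceeded the lowest 5.89-fold, against 1.47-fold in PM2.5 libraries. Control 3 was level with the PM2.5 libraries, and controls 1 and 2 were above all of them. The log2 fold change of -1.34 ± 0.66 had the largest size among the 8 members tested, with an interval from -2.90 to 0.23, and did not pass (edgeR's adjusted p = 0.296). It was -1.74 without control 3 (adjusted p = 0.264, range 0.264 to 0.700 over the alternatives). Without control 1, Aim2 and Nlrp3 both came under the filter. With the genes of the full set kept, a setting added after seeing the data, leaving out control 1 gave -0.42 for Aim2 (adjusted p = 0.700 in edgeR) and -0.81 for Nlrp3, so the size of the Aim2 value rests on that library. Aim2 lies on chromosome 13 from 85866284 to 85906975 on the plus strand.

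Nek7, a mitotic kinase that also binds Nlrp3 and licenses its assembly, had 17.6, 11.3 and 10.4 FPKM in PM2.5 libraries 1 to 3, against 11.2, 14.6 and 19.9 FPKM in controls 1 to 3. The groups covered nearly the same range. Nek7 was highest in control 3 and PM2.5 library 1, the pair with the highest luteal and lowest granulosa marker sums. Single markers differed in Pearson's r with Nek7, in log2 CPM over the 6 libraries. Luteal values were 0.930 for Star, 0.873 for Hsd3b1, 0.801 for Scarb1, 0.535 for Cyp11a1 and 0.015 for Lhcgr. Lhcgr was lowest of all libraries in control 3, at 81.2 CPM. Granulosa values were -0.987 for Inha, -0.968 for Fshr, -0.863 for Amh, -0.502 for Cyp19a1 and 0.090 for Foxl2. Nek7 was not alone in this. With Star, r was 0.921 for Nlrc4, 0.848 for P2rx7, 0.838 for Nlrp3 and 0.499 for Casp4. It was 0.361 for Casp1, 0.086 for Aim2, -0.219 for Pycard and -0.599 for Gsdmd. With Inha, in the same order of members, it was -0.847, -0.698, -0.632, -0.715, -0.151, 0.223, 0.491 and 0.759. The part of cell types in these levels was not tested. The log2 fold change of Nek7 was -0.23 ± 0.29, with an interval from -0.92 to 0.46, and it was 0.05 without control 3. Nek7 lies on chromosome 13 from 50022218 to 50149296 on the minus strand.

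Pycard, the adaptor that links sensors to caspase-1, had 1.29, 2.34 and 2.18 FPKM in PM2.5 libraries 1 to 3 and 4.41, 3.34 and 1.85 FPKM in controls 1 to 3. Controls 1 and 2 were above every PM2.5 library, and control 3 was below PM2.5 libraries 2 and 3. Set against controls, its log2 fold change was -0.72 ± 0.44, with an interval from -1.76 to 0.32, and did not pass (edgeR's adjusted p = 0.384). Without control 1 it was -0.41. Pycard lies on chromosome 1 from 182601174 to 182602955 on the minus strand.

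Casp1, the protease that matures the cytokines, had 3.72, 5.27 and 3.24 FPKM in PM2.5 libraries 1 to 3, against 5.70, 5.14 and 5.04 FPKM in controls 1 to 3. PM2.5 libraries 1 and 3 were below every control, and PM2.5 library 2 lay within the range of the controls. Casp1 averaged 4.08 ± 1.06 FPKM in the PM2.5 group and 5.30 ± 0.358 FPKM in controls (SD, n = 3 each), the tightest control group of any member at a coefficient of variation of 6.75%. On the log2 scale the fold change was -0.38 ± 0.27, with an interval from -1.01 to 0.25, and did not pass (edgeR's adjusted p = 0.445). It was -0.61 when PM2.5 library 2 was left out and -0.24 when PM2.5 library 3 was.

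Casp4, the caspase that binds cytosolic lipopolysaccharide and cleaves gasdermin D without a canonical inflammasome, had 17.1, 15.9 and 13.5 FPKM in PM2.5 libraries 1 to 3, against 11.5, 14.3 and 17.3 FPKM in controls 1 to 3. It was the only member tested with a positive log2 fold change, 0.10 ± 0.21, and it had the narrowest interval, from -0.41 to 0.61. On a linear scale that interval runs from 0.752-fold to 1.52-fold, so a larger change in either direction lay outside it. The sign turned to -0.04 without control 1. Casp1 and Casp4 are neighbours on chromosome 8 on the plus strand, from 2587831 to 2597383 and from 2598876 to 2635092, with 1492 bases between them, and Casp12, another inflammatory caspase, follows after 7341 bases. These genes are related in sequence, and reads that match more than 1 of them may have been split, which makes their counts less certain. Casp12 averaged 1.69 ± 0.282 FPKM in the PM2.5 group and 2.05 ± 0.354 FPKM in controls (SD, n = 3 each), and did not pass (log2 fold change -0.27 ± 0.26).

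Gsdmd, the pore-forming effector, had 10.2, 15.9 and 19.3 FPKM in PM2.5 libraries 1 to 3 and 24.9, 16.7 and 11.3 FPKM in controls 1 to 3. The controls held the highest library and the PM2.5 group the lowest, with the rest interleaved. Its log2 fold change was -0.22 ± 0.33, with an interval from -1.01 to 0.57, and it was 0.11 without control 1. Gsdmd lies on chromosome 7 from 107542083 to 107547055 on the plus strand. Gsdmd and Pycard were both highest in control 1 and lowest in PM2.5 library 1. Casp4 ran the opposite way to Gsdmd, lowest in control 1 and highest in control 3 and PM2.5 library 1. Their r with the luteal markers also differed in sign, from 0.165 (Lhcgr) to 0.886 (Scarb1) for Casp4 and from -0.372 (Lhcgr) to -0.941 (Scarb1) for Gsdmd. With granulosa markers it ran from -0.144 (Foxl2) to -0.751 (Fshr) for Casp4 and from -0.002 (Foxl2) to 0.759 (Inha) for Gsdmd. The part of cell types in this was not tested.

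**Figure D2:**
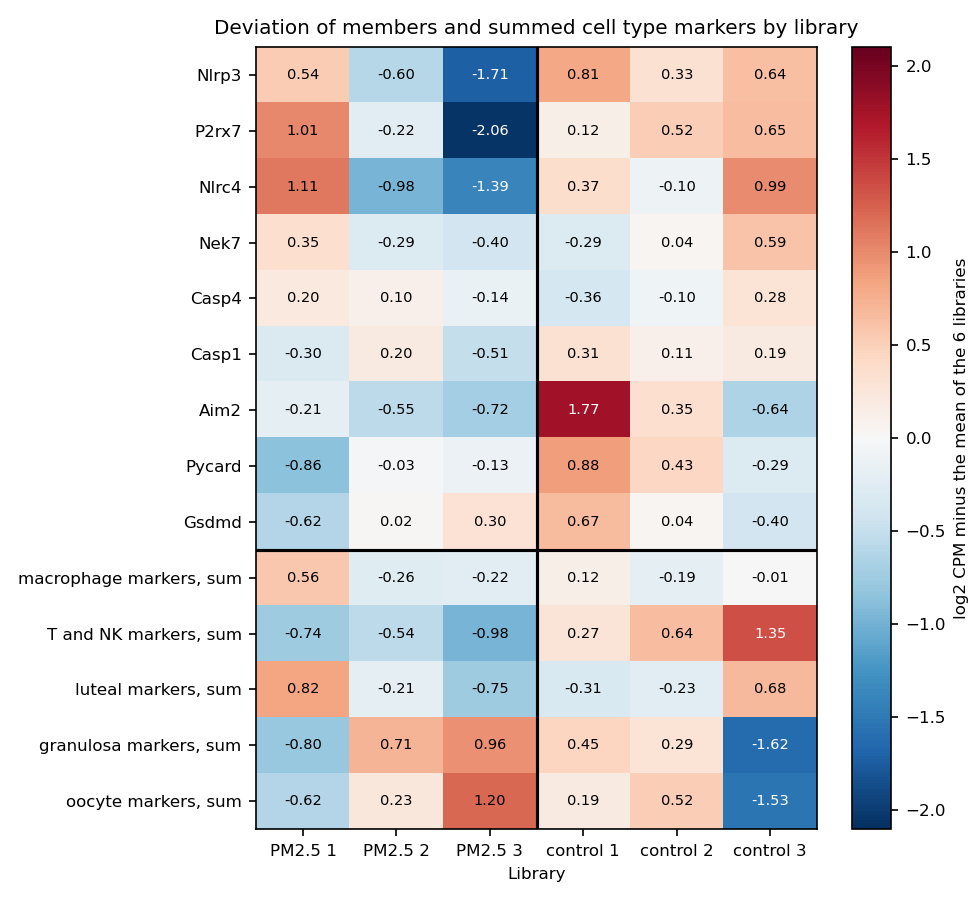
Deviation of each member (top rows) and of summed cell type markers (bottom rows) from its own mean over the 6 libraries, in log2 CPM, with PM2.5 libraries left of controls. Nlrp3, P2rx7 and Nlrc4 are lowest in PM2.5 library 3 at -1.71, -2.06 and -1.39, Nek7 is highest where the luteal sum is high and the granulosa sum is low, and Gsdmd and Casp4 have opposite colours in most libraries.

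For each member the genes with the most similar profile were sought among those with a mean of at least 1 FPKM, by Pearson's r of log2 CPM over the 6 libraries, as a description without a test. With 6 points many genes reach a high value: 82 genes had r above 0.95 with Nek7 and 39 with Nlrp3. Nek7 was most like Atf7, a transcription factor of the ATF family (r = 0.998), and Ly96, the lipopolysaccharide-binding partner of Toll-like receptor 4 (r = 0.994). Casp1 was most like Nkg7, a granule protein of natural killer and cytotoxic T cells (r = 0.981), and Tchp (r = 0.969). Aim2 was most like Znf846 (r = 0.983) and Ly49si4, an immunoreceptor of the Ly49 family (r = 0.971). The genes nearest to Nlrp3 were Ptcd1 (r = 0.992) and Nhlrc1 (r = 0.989), those nearest to Gsdmd were LOC120095301 (r = 0.988) and Stk11ip (r = 0.984), and those nearest to Casp4 were Mycbp (r = 0.992) and Fam91a1 (r = 0.977). P2rx7 was nearest to AABR07067600.1 (r = 0.992) and Cfap70 (r = 0.991). Pycard was nearest to Rab26 (r = 0.986) and to a row named by its Ensembl identifier alone (r = 0.982).

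The summed T and NK cell markers (8 of 9 listed had a row, Nkg7 among them, and none was at 0 in any library) were 12.3, 14.2 and 10.5 CPM in PM2.5 libraries 1 to 3 and 24.97, 32.2 and 52.5 CPM in controls 1 to 3. The gap between these groups came mostly from Gzmb, a granule protease, which alone of the 6 markers tested was called (log2 fold change -4.14 ± 0.66, adjusted p = 0.0486 in edgeR, 0.0577 without the filter). Prf1 was also lower in every PM2.5 library, at 1.07, 0.379 and 0.806 CPM, against 2.05, 1.94 and 2.12 CPM in controls. It was not called (log2 fold change -1.44 ± 0.48, edgeR's adjusted p = 0.168). Groups stood apart in FPKM for these 2 of the 6 tested, or 33.3%, beside 26.7% of all genes. With Gzmb left out, a sum added after seeing the data, the other 7 markers gave 11.5, 11.7 and 9.51 CPM in PM2.5 libraries 1 to 3 and 13.0, 11.8 and 9.51 CPM in controls 1 to 3, and the groups overlapped. The part of these cells in the levels of Aim2 and Casp1 was not tested.

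Among 61 other genes of the pathway, 58 had a row and 48 were tested. Txnip was the gene of that list that edgeR called, and it was higher with PM2.5. Txnip, which binds thioredoxin and can bind Nlrp3, had 437, 283 and 326 FPKM in PM2.5 libraries 1 to 3, against 119, 125 and 96.6 FPKM in controls 1 to 3. Every PM2.5 library lay above every control. The log2 fold change was 1.62 ± 0.21 (edgeR's adjusted p = 0.0434), and no gene of the list was called lower. The adjusted p exceeded 0.05 when any single library was left out, from 0.0706 without control 2 to 0.230 without PM2.5 library 2, with log2 fold changes from 1.42 to 1.75, and it was 0.0505 with no filter. Erythroid markers (5 of 5 had a row) were also higher with PM2.5, at 2564, 3860 and 4032 CPM in PM2.5 libraries 1 to 3 and 711, 657 and 663 CPM in controls 1 to 3, and 3 of the 4 tested were called, all higher. Markers of surface and oviduct epithelium (5 of 6 had a row, none at 0) summed to 353, 410 and 42.5 CPM with PM2.5 and 40.1, 81.7 and 19.7 CPM in controls, and 0 of 5 were called, with 3 at an unadjusted p below 0.05 in edgeR and 2 called by DESeq2. The part of either cell type in the level of Txnip was not tested. In the list 33 of 48 log2 fold changes were negative and the median was -0.25, with 11 genes at an unadjusted p below 0.05, 9 lower and 2 higher. That is 22.9% of the list, beside 20.9% of all genes. DESeq2 called 7 of the 48, beside 11.6% of all genes, and the groups stood apart in FPKM for 13 of the 48, or 27.1%, beside 26.7% of all genes. Nlrp3 itself, with which the Txnip protein interacts, had a log2 fold change of the opposite sign that did not pass.

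Of the cytokines that caspase-1 matures, Il18 had 9.47, 10.8 and 13.9 FPKM in PM2.5 libraries 1 to 3, against 29.4, 36.5 and 19.1 FPKM in controls 1 to 3. Every PM2.5 library was below every control, and the log2 fold change of -1.31 ± 0.27 missed the threshold (edgeR's adjusted p = 0.0743), while DESeq2 gave an adjusted p of 0.000688. Il1b had 2.29, 0.540 and 0.571 FPKM with PM2.5 and 1.69, 2.07 and 1.31 FPKM in controls, highest in PM2.5 library 1 like P2rx7 and Nlrc4, with a log2 fold change of -0.58 ± 0.63. It was -1.60 when PM2.5 library 1 was left out and -0.24 when PM2.5 library 2 was, and did not pass in either. Il1a had counts in control 2 alone, 17 in all, and was not tested. Il1rn, the receptor antagonist that blocks interleukin-1, had 2.32, 9.77 and 14.8 FPKM in PM2.5 libraries and 15.0, 29.3 and 29.5 FPKM in controls, which did not overlap, and did not pass (log2 fold change -1.47 ± 0.62, edgeR's adjusted p = 0.242).

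**Figure D3:**
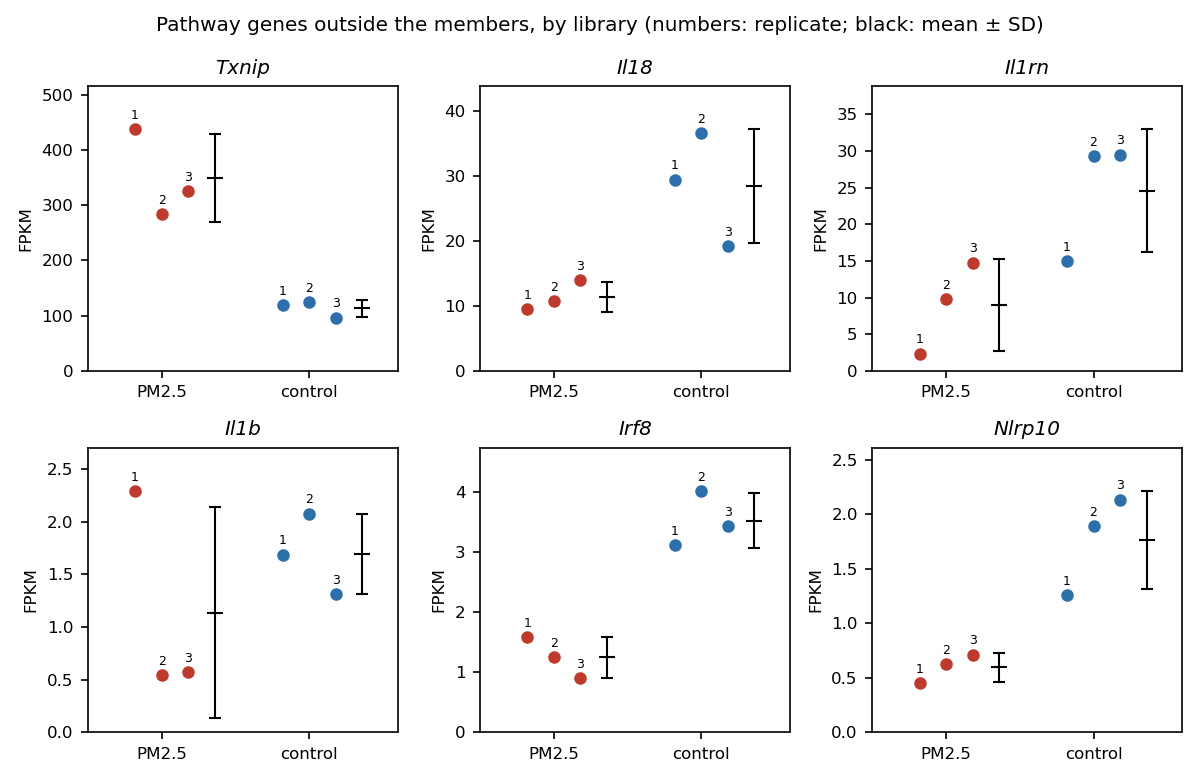
Levels of 6 pathway genes outside the members in FPKM (linear axis from 0) in PM2.5 libraries (red, left) and controls (blue, right), with replicate numbers and the mean ± SD in black. Txnip lies between 283 and 437 FPKM with PM2.5 and at 125 FPKM or less in controls, Il18, Il1rn, Irf8 and Nlrp10 are lower in each PM2.5 library than in any control, and Il1b overlaps.

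Of the other cell death genes, Casp8, which can cleave gasdermin D and starts apoptosis, had a log2 fold change of -0.64 ± 0.22. Mlkl, the pore former of necroptosis, had -0.87 ± 0.23 and Panx1, a channel that releases ATP, had -0.80 ± 0.26. Groups did not overlap in FPKM for any of these 3, as for 26.7% of all genes, and none passed in edgeR (adjusted p from 0.121 to 0.175). DESeq2 called Mlkl (adjusted p = 0.0205) and Panx1 (adjusted p = 0.0370) but not Casp8 (adjusted p = 0.0823). Gsdme, another pore-forming gasdermin, had -0.27 ± 0.47, and Ninj1, which ruptures the membrane of dying cells, had -0.12 ± 0.18, with overlapping groups in both. Gsdme was at 0.10 without control 2, and Ninj1 at 0.05 without control 3.

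The other genes with the smallest unadjusted p were Irf8, Nlrp10, Sting1 and Brcc3. Irf8, a transcription factor of myeloid cells that drives Naip genes in mice, had 1.59, 1.25 and 0.904 FPKM in PM2.5 libraries 1 to 3, against 3.11, 4.01 and 3.43 FPKM in controls. Its log2 fold change was -1.50 ± 0.26 (edgeR's adjusted p = 0.0581, DESeq2 adjusted p = 1.81e-05). Naip5 had 0.362, 0.264 and 0.0123 FPKM in PM2.5 libraries 1 to 3, against 1.07, 0.372 and 3.63 FPKM in controls. Its counts ran from 4 in PM2.5 library 3 to 1220 in control 3. The log2 fold change of Naip5 was -3.02 ± 1.23 (edgeR's adjusted p = 0.228, DESeq2 adjusted p = 0.0410). In CPM the groups of Naip5 overlapped, with 2.37 in PM2.5 library 1 and 2.35 in control 2. Naip6 was under the filter, and its groups overlapped. The 2 genes overlap on the minus strand of chromosome 2, Naip5 from 31557817 to 31608634 and Naip6 from 31507424 to 31570542. Reads that match both may have been split, which makes their counts less certain. The part of Irf8 in these levels was not tested. Nlrp10, an NLR protein without leucine-rich repeats, had 0.452, 0.623 and 0.714 FPKM in PM2.5 libraries and 1.26, 1.89 and 2.14 FPKM in controls, with a log2 fold change of -1.57 ± 0.38 (edgeR's adjusted p = 0.109, DESeq2 adjusted p = 0.00504). Sting1, the adaptor of cytosolic DNA sensing by cGAS, lay the other way. It had 5.17, 9.52 and 11.2 FPKM in PM2.5 libraries and 5.00, 5.04 and 3.11 FPKM in controls, which did not overlap. Its log2 fold change was 0.98 ± 0.34 and did not pass (edgeR's adjusted p = 0.178). Brcc3, which removes ubiquitin from Nlrp3, had -0.35 ± 0.14 and did not pass.

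**Figure D4:**
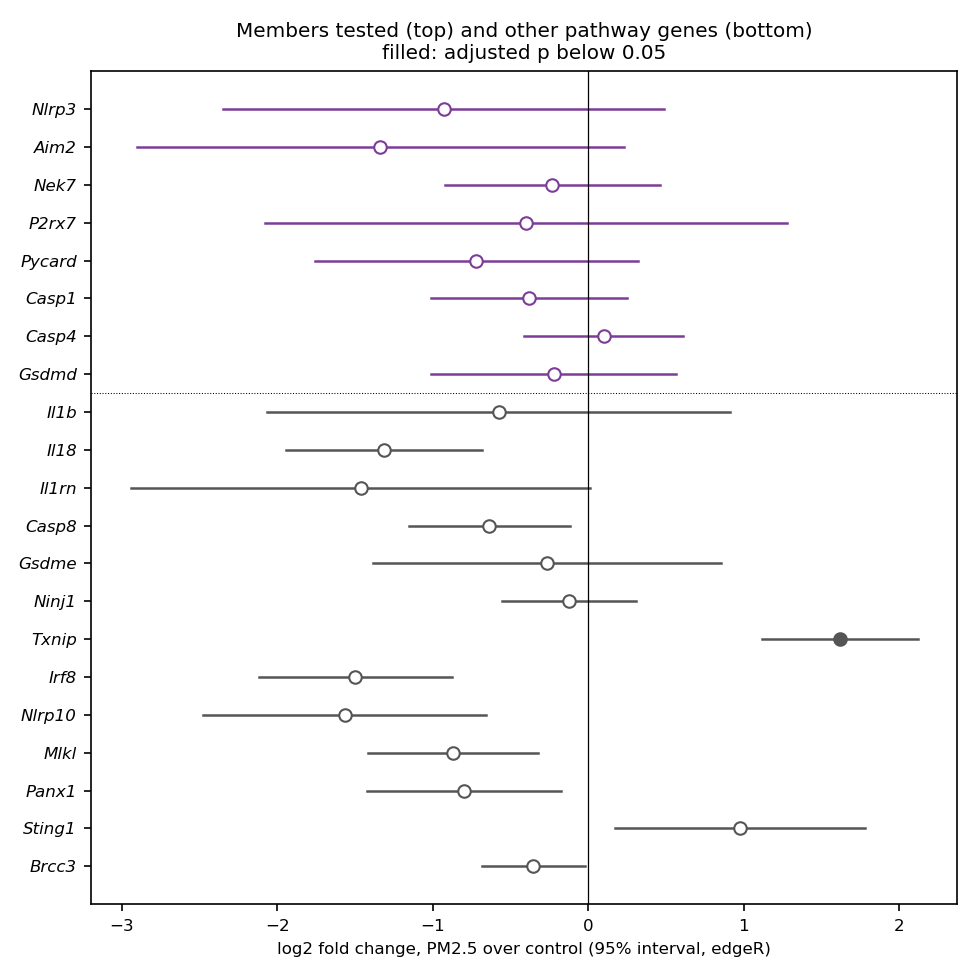
Log2 fold change of PM2.5 over control with its 95% interval for the 8 members tested (purple, top) and other pathway genes (grey, bottom). Points are filled where edgeR's adjusted p is below 0.05. The intervals of all 8 members include 0, and Txnip at 1.62 is the filled point.

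The table's own annotation gave wider sets, which hold members and so are not separate from them. Terms for an inflammasome covered all members but Nlrc4 and P2rx7, and terms for pyroptosis covered Aim2, Casp1, Casp4 and Gsdmd. The medians given below for these terms are the values of Nek7 and Gsdmd themselves. All 9 members were among the 164 genes assigned to the KEGG pathway of NOD-like receptor signaling, of which 138 were tested, 82 had a negative log2 fold change and the median was -0.11. Txnip was again the gene called, 0.725% of those tested beside 0.928% of all genes. Of 28 genes with a Gene Ontology term that names an inflammasome, 25 were tested, 19 were negative, the median was -0.23 and none was called, with 1 at an unadjusted p below 0.05 in edgeR and 1 called by DESeq2, or 4% each beside 20.9% and 11.6% of all genes. Both counts were Ptpn22, a phosphatase of immune cells named after its values were seen, with a log2 fold change of 2.03 ± 0.57. Of 19 genes with a term for pyroptosis, 17 were tested, 11 were negative, the median was -0.22 and none was called, with 1 (5.88%) at an unadjusted p below 0.05 in edgeR and 0 called by DESeq2.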

How the data were processed

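Poly(A) RNA of 6 ovarian libraries was sequenced from both ends with strand marked by dUTP, per the labels' protocols. The submitters' processing notes name the trimmer cutadapt 1.9, the aligner HISAT2 2.2.1 and the assembler StringTie 2.1.6, and also edgeR and DESeq2. The genome build and whether the counting used strand are named by no source used here. The count and FPKM values per gene were deposited by the authors, per the file headers, and the counts are whole numbers. From these, edgeR 4.0.16 in R 4.3.3 (TMM factors, glmQLFit, glmQLFTest) tested PM2.5 over control on the counts for genes that averaged 0.5 FPKM or more, with two-sided p-values adjusted by Benjamini-Hochberg over all genes tested at 0.05. Standard errors are the fold change's size over the square root of F. CPM uses TMM factors. The script was tested on simulated data. No library repeats another of its own group: the lowest chi-square per degree of freedom was 135.

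The members and gene lists were chosen with earlier results of these data known. Genes named are the 9 members, 9 pathway genes taken whatever their values, pathway genes called and the 6 others with the smallest p. The 2 genes most like each member tested are named too. P2rx4, Casp12, Gzmb and Ptpn22 are named for their place or their call. Prf1, Naip5, Naip6, Foxl2, Lhcgr, Cx3cr1, Fcer1g, Mrc1 and Ltf were named after their values were seen. A gene that the rule names is not reported here. Nlrp1b, Naip2 and Trim31 of the pathway list, and Elane, Cd4, Akr1c18 and Ovgp1 of the marker lists, matched no row by name. Alternatives used DESeq2 1.42.0, limma 3.58.1 on log2(FPKM + 1) and log2(FPKM + 0.1), other scalings and filters, a replicate block, and each library left out. Reference sequences in hand were of the mouse and were not used.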

Additional observations from a re-analysis of the deposited data

How the results depend on the processing

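The count of members changed was 0 in every setting run, 2 of which (without PM2.5 library 1 and without control 3) had 1 member at an unadjusted p below 0.05, Nlrp3 and Aim2 in that order. The number of all genes changed was 142, between 130 and 180 under limma, a filter of 1 FPKM and other scalings, 1767 with DESeq2, 8 without a filter, and 0 to 7 with a library left out, where fewer samples entered. Pathway genes changed numbered 1, 7 with DESeq2, 0 without a filter and 0 with each library left out. Apart from fewer samples, the cause was not tested. The labels do not say that same-numbered libraries are paired, and their deviations correlated at -0.18, 0.16 and 0.09. With the replicate block 1 gene, 0 members and 0 pathway genes changed. Of 305 other values for the members tested and the pathway genes taken by rule, 286 kept their sign and call. Without 1 library the sign turned for 6 genes that did not pass: Nek7 (range -0.50 to 0.051), P2rx7 (-1.32 to 0.074), Casp4 (-0.043 to 0.29), Gsdmd (-0.44 to 0.11), Gsdme (-0.58 to 0.10) and Ninj1 (-0.23 to 0.0495), ranges over all alternatives. Txnip lost its call in 8 settings, and 5 of the pathway genes taken by rule gained one with DESeq2. No member name was repeated, so another row could not be tried. The 95% intervals of 6 of the 8 members tested, all but Nek7 and Casp4, reached past a 2-fold change in at least 1 direction, so changes of that size lay within them. Nlrc4 had too few counts for the filter.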
